A study of Schizosaccharomyces pombe with 3 samples.

Results

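Genes of the clones that carry the ends of chromosome II of fission yeast, Schizosaccharomyces pombe, were followed in a binding map of Ssn6. The members were every array feature whose systematic name starts with 1 of 9 clone names (SPBC1348, SPBPB10D8, SPBPB21E7, SPBPB8B6, SPBPB7E8, SPBPB2B2, SPBC1683, SPBC359 and SPBC8E4), apart from 9 galactose, phosphate, iron and glycoprotein genes of these clones that were set aside. This gave 83 of 10131 features, 40 of them intergenic and 43 coding, from 45 gene names. No feature was named after SPBC1348, SPBPB21E7 or SPBPB8B6, so 6 clones contributed. RefSeq assembly ASM294v3 lists 40 of the 45 names. SPBPB10D8.08, SPBPB2B2.03c, SPBPB2B2.04, SPBPB2B2.20c and SPBPB7E8.03 have no entry there and are reported by name alone.

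The label of a chromosome end was checked against the reference. Genes of SPBPB10D8, SPBC359 and SPBC1683 lie 81.0 to 170.2 kb from the left end of the assembled chromosome, and those of SPBPB2B2 and SPBC8E4 lie 34.9 to 108.1 kb from its right end. The genes of SPBPB7E8 lie at least 1038 kb from the nearest end. They are therefore called the internal clone here, and the counts are given below without them as well.

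The cells expressed Ssn6 with a green fluorescent protein tag and were taken in mid log growth in YES, a rich medium. After crosslinking, chromatin was pulled down through the tag, and this DNA and the input were amplified and hybridised in 2 colours. There were 3 arrays, called Sl1, Sl2 and Sl10 as in their labels, all of 1 group. Neither an untagged strain nor a mock pull-down was analysed here. The p-values measure the spread between these arrays, for which the labels speak of separate experiments.

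Ssn6 works in a corepressor complex with proteins of the Tup1 family, Tup11 and Tup12 in fission yeast. The complex does not read DNA itself but is brought to promoters by DNA-binding repressors, and its targets in yeasts include genes for nutrient uptake and alternative carbon sources. Subtelomeres, the stretches next to the telomeres, are rich in such conditionally used genes and in sequences repeated between chromosome ends.

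The value of a feature is the log2 ratio of likely immunoprecipitate to likely input, centred on each array's median. The channel taken as immunoprecipitate was B on Sl1 and Sl2 and A on Sl10, following the channel of the authors' deposited values. The labels state that dyes were not swapped and the scanner files name no dyes, so the direction is not settled, and the sign of every value could be turned as a whole. Read as channel B over A on all arrays, Sl10 correlated at -0.48 with Sl1 and at -0.54 with Sl2 over 3960 features, while Sl1 and Sl2 correlated at 0.72. Among the 41 members tested these correlations were -0.63, -0.66 and 0.75. Signal in both channels was found at 49.0% of the feature spots on Sl1, 37.7% on Sl2 and 95.4% on Sl10. A feature with a ratio on each of the 3 arrays was tested against 0 with limma, and those with a Benjamini-Hochberg adjusted p under 0.05 over all 3960 features were called enriched above 0 and depleted below 0.

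Of the 83 members, 41 were measured on 3 arrays, 20 on 2, 20 on 1 and 2 on none, the last being the coding features of SPBPB10D8.01 and tgd1. Both channels gave signal at 35 of the 80 member intergenic spots on Sl1 and at 26 on Sl2. The likely immunoprecipitate alone gave signal at 27 and 37 of them, and neither channel did at 17 on either array. On Sl10 all 80 spots had both channels. The array files give no probe coordinates. On Sl10 the intergenic features of divergent neighbours correlated at 0.60 (1079 pairs) against 0.21 for convergent neighbours (1083 pairs), and an intergenic feature was read as the region upstream of the gene in its name.

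The sequences of the 4 member upstream regions with the highest tested ratios, and of 1 region with a ratio near 0, are shown from RefSeq ASM294v3. Which of these bases were probed is not known. The whole gaps upstream of amf1 and pho841 are 2153 and 4259 bases long, so their probes may lie outside the stretch shown. The first is the whole gap between the divergent genes icl1 and SPBC1683.12, II:168369-168645, plus strand. The second is the whole gap between gal7 and tgd1, II:4483694-4483983, plus strand. The next pair are the 300 bases before the annotated starts of amf1 (II:140259-140558, minus strand) and pho841 (II:133702-134001, plus strand). The last is the whole gap between ftm7 and SPBPB2B2.18, II:4502397-4502691, plus strand, which holds the lowest tested intergenic member. Capitals mark GATA letters, AGATAA or TGATAA on either strand.
icl1 and SPBC1683.12: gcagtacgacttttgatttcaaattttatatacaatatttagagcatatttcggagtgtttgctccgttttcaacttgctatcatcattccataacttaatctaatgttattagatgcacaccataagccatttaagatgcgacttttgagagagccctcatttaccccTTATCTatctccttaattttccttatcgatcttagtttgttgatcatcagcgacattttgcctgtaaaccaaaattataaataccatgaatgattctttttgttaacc
gal7 and tgd1: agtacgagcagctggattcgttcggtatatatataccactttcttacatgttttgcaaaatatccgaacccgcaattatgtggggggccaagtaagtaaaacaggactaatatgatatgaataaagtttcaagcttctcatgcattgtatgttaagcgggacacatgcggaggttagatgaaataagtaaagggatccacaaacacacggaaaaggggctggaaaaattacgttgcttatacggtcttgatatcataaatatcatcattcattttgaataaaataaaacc
amf1: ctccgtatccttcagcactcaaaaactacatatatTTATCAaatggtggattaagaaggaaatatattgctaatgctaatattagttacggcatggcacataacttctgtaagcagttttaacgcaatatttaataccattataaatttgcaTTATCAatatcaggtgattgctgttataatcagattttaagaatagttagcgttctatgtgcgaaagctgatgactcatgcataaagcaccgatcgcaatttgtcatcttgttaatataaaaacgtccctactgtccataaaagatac
pho841: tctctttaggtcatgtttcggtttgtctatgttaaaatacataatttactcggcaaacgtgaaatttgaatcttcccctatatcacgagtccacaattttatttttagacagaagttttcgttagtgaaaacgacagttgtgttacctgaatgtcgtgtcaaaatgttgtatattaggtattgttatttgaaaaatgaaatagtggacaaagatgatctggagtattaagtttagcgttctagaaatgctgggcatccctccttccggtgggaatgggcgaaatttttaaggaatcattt
ftm7 and SPBPB2B2.18: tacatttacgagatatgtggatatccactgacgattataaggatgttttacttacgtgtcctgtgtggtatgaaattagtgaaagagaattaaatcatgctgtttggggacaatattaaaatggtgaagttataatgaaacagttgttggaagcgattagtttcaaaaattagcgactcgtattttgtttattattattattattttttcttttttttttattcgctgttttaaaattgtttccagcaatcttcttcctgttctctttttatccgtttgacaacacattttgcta

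The intergenic members stood high on every array. Of the 12 tested, 7 were called enriched (58.3%, against 19.7% of the 1327 tested intergenic features). By limma 0 of the 12 were called depleted, against 0.904% of all, and 0 were depleted at an unadjusted p under 0.05. Their median log2 ratio was 1.32 against 0.36 over all tested intergenic features. On Sl1, Sl2 and Sl10 it was 1.26, 1.26 and 1.47, against 0.38, 0.44 and 0.30. Sl10, which measured all 40 intergenic members, gave a median of 1.12 (range -0.81 to 2.80) against 0.07 over 4908 features. On that array 38 of the 40 lay above 0 (95%, against 55.3% of all), and 9 lay above 2 (22.5%, against 3.04%).

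**Figure D1:**
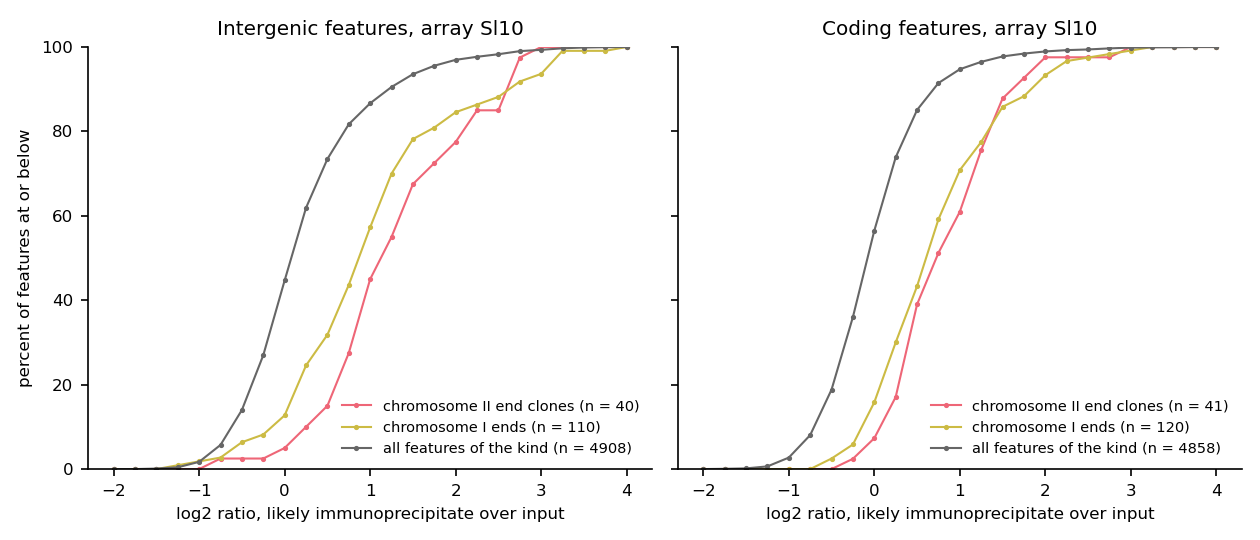
Cumulative share of features (percent, vertical axis) at or below each log2 ratio (horizontal axis) on array Sl10, intergenic features on the left and coding features on the right. The curve of the chromosome II end clones (n = 40 and 41) runs right of the curve of all features of the kind (n = 4908 and 4858) up to a log2 ratio of 2. The chromosome I ends (n = 110 and 120) are also drawn, with 87.3% and 84.2% of features above 0, against 95% and 92.7% of the members.

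The authors' own cutoff, as the labels give it, is the 85th percentile of the median percentile rank. Applied here to the rank of each feature among all features of an array, with the median over the arrays that measured it, 27 of the 40 intergenic members reached it (67.5%, against 17.0% of 4923 features). Of the 41 coding members with a rank, 8 reached it (19.5%, against 5.16% of 4862). Of features within 170.2 kb of the ends of chromosome I, compared below, 53 of 110 intergenic (48.2%) and 33 of 120 coding (27.5%) did. With the sign of every value turned, 1 of 40 (2.5%, against 9.57%) and 0 of 41 (against 14.9%) did. With channel B over A on all 3 arrays, 8 of 40 (20%, against 14.1%) and 2 of 41 (4.88%, against 5.86%) did. With channel A over B on all 3 arrays, 11 of 40 (27.5%, against 6.24%) and 4 of 41 (9.76%, against 10.7%) did. This count includes features measured on a single array, for which no spread is known.

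Transporter and permease genes made up 6 of the 12 tested intergenic members and 4 of the 7 enriched ones. Upstream of amf1, annotated as a membrane transporter, the log2 ratio was 1.75 on Sl1, 1.79 on Sl2 and 2.52 on Sl10. The 3 arrays lay within 0.77 of each other, and the mean was 2.02 ± 0.43 (SD, n = 3 arrays, as for all such values), a 4.05-fold ratio with a limma adjusted p of 0.003. The divergent neighbour SPBC1683.04, annotated as a glycosyl hydrolase, shares this gap of 2153 bases, and its upstream feature, measured on Sl10 alone, read 0.85. Upstream of pho841, which encodes an inorganic phosphate transporter, the values were 1.43, 1.78 and 2.71 in the same order of arrays. Sl10 was the highest, and the mean was 1.97 ± 0.66 (limma adjusted p = 0.00544). Upstream of SPBC1683.12, annotated as a nicotinic acid transporter of the plasma membrane, 1.22, 1.27 and 1.70 were measured. The mean was 1.39 ± 0.26 (limma adjusted p = 0.014).

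The region upstream of nrg1, an amino-acid permease gene, gave 1.31, 1.26 and 1.49 on Sl1, Sl2 and Sl10. It had the smallest spread of the 7, with a mean of 1.35 ± 0.12 (limma adjusted p = 0.0142). The other intergenic members of transporter and permease genes were 2 tested features that did not pass, those of SPBPB2B2.16c and the transporter pseudogene SPBPB10D8.03, and 3 that were not measured on all arrays. All 9 lay above 0 on Sl10, with a median of 1.49 there. Upstream of aat1, another amino acid permease gene, only Sl10 had signal in both channels, and the log2 ratio was 2.24. Upstream of thi7, whose budding yeast namesake takes up thiamine, 1.34 on Sl2 and 0.91 on Sl10 were measured.

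Upstream of icl1, annotated as isocitrate lyase, an enzyme of the glyoxylate cycle in other fungi, the log2 ratio was 2.19 on Sl1, 1.85 on Sl2 and 2.54 on Sl10. All 3 arrays were high, and the mean of 2.19 ± 0.35 (4.58-fold) had the lowest limma adjusted p of the members, 0.00179. The icl1 feature and the SPBC1683.12 feature are read as the same gap of 277 bases, shown first above. The icl1 feature was the higher of this pair on each of the 3 arrays, and their calls do not count as separate regions.

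Upstream of tgd1, annotated as a nucleotide-sugar dehydratase, the values were 1.60, 2.28 and 2.80. Its mean of 2.23 ± 0.60 (4.68-fold, limma adjusted p = 0.00261) was the highest of the tested intergenic members. The gap of 290 bases, shown second above, is shared with gal7, a galactose gene that was set aside, whose own feature read 2.13 ± 0.50. Upstream of mal1, the maltase gene, and urh1, which encodes a hydrolase that splits uridine, Sl10 read 0.37 and 1.10. These genes abut in the reference, which leaves no bases between them, and Sl1 read 1.05 upstream of mal1.

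The seventh enriched region lay upstream of SPBPB2B2.08, an uncharacterized gene, with 1.35, 1.64 and 0.89. Here Sl10 was the lowest of the 3 arrays, and the mean was 1.29 ± 0.38 (limma adjusted p = 0.0206). Its divergent neighbour SPBPB2B2.07c was measured on Sl10 alone, at 0.76.

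The 5 tested intergenic members that did not pass had smaller ratios. Upstream of SPBPB2B2.15, a gene with a Vel1p domain, the values were 0.67, 0.37 and 1.44 (0.83 ± 0.55, limma adjusted p = 0.107). Upstream of the pseudogene SPBPB10D8.03 they were 0.47, 0.46 and 1.35 (0.76 ± 0.51, limma adjusted p = 0.128). In both, Sl10 stood above the other arrays. The neighbour SPBPB2B2.14c, which shares the gap of SPBPB2B2.15, read 1.81 on Sl1 and 1.38 on Sl10. The region between ftm7 and SPBPB2B2.18, shown last above, read -0.09 ± 0.67 at the ftm7 feature and 0.32 ± 0.35 at the other. Upstream of SPBPB2B2.16c, a membrane transporter gene, the mean was 0.31 ± 0.38.

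**Figure D2:**
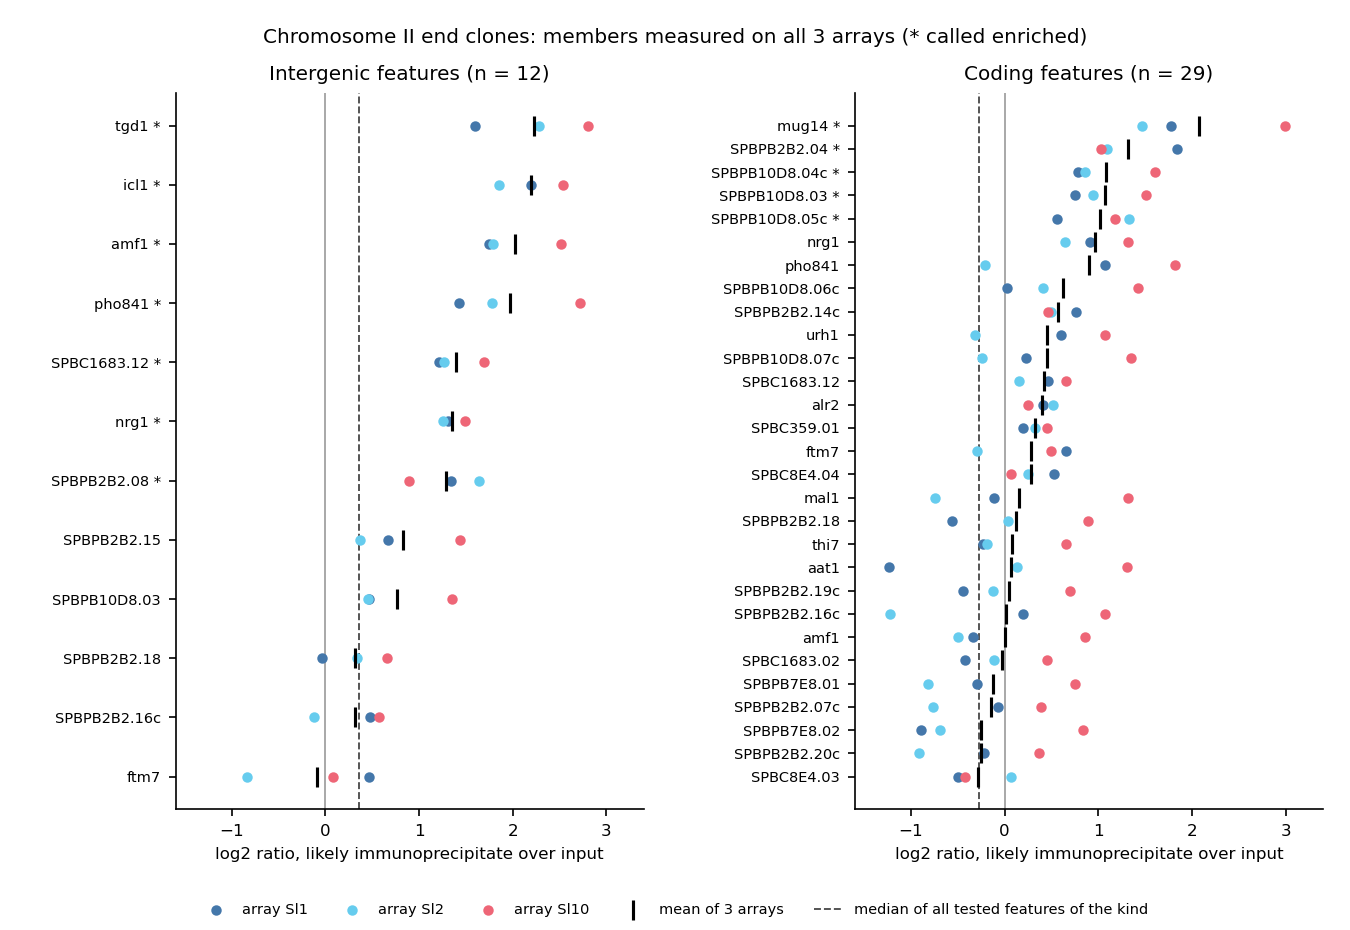
Log2 ratio of likely immunoprecipitate over input (horizontal axis) of each member measured on all 3 arrays, 12 intergenic on the left and 29 coding on the right, with 1 point per array, a black bar for the mean and an asterisk for a called member. The 7 enriched intergenic members lie above 0.89 on every array, and 12 of the 29 coding members lie above 0 on every array.

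Several high intergenic members were not tested, since the likely input gave no signal at their spots on at least 1 array. Upstream of mug14, named among meiotically upregulated genes and annotated as an adducin of the actin cytoskeleton, Sl10 read 2.67. Upstream of SPBPB2B2.06c, Sl1 and Sl10 read 2.59 and 2.66. The reference gives its product as a phosphoprotein phosphatase, while its note names an extracellular 5'-nucleotidase. SPBPB2B2.03c, which the reference does not list, gave 3.32 on Sl1 and 1.94 on Sl10. Those of SPBPB2B2.05, of a glutamine amidotransferase family, and alr2, an alanine racemase gene, read 2.08 and 1.96 on Sl10.

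Lower values on Sl10 were found upstream of the remaining named genes. They were 1.14 for say1, a sterol deacetylase gene, 1.04 for pan5, whose product acts in pantothenate synthesis, and 0.28 for cha4, a transcription factor gene. The lowest of all 40 was -0.81, upstream of SPBC8E4.05c, annotated as fumarate lyase, and the other value below 0 was -0.11, upstream of SPBPB10D8.02c, annotated as an arylsulfatase. For these features no replicate was available.

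Of the 29 coding members tested, 5 were called enriched (17.2%, against 2.42% of 2601) and 0 depleted by limma (against 7.84% of all). Also, 0 of the 29 were depleted at an unadjusted p under 0.05. Their median was 0.29 against -0.28 over all tested coding features. By array it was 0.20 on Sl1, 0.04 on Sl2 and 0.86 on Sl10, against -0.44, -0.28 and -0.08. It was 0.56 without Sl2 and 0.15 without Sl10. The SD of this median between arrays was 0.43, against 0.12 for the intergenic members, and Sl10 carried the higher values.

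The highest coding member was mug14, with 1.78 on Sl1, 1.47 on Sl2 and 2.99 on Sl10. Sl10 was more than 1 log2 unit above the other arrays, and the mean was 2.08 ± 0.80 (4.22-fold, limma adjusted p = 0.00544). In the reference mug14 lies directly before the long gap upstream of pho841, and after abc3, one of the genes set aside. Next came SPBPB2B2.04, a name without an entry in the reference, with 1.84, 1.09 and 1.03 (1.32 ± 0.45, limma adjusted p = 0.0206). The pseudogene SPBPB10D8.03 read 0.76, 0.95 and 1.51 (1.07 ± 0.39, limma adjusted p = 0.0424).

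The other enriched coding members belong to a tandem array of transporter genes, SPBPB10D8.04c to SPBPB10D8.07c. The 1140 bases of their coding sequences are identical in all 4 genes in the reference, with 0 differing positions. SPBPB10D8.04c read 0.78, 0.86 and 1.60 (1.08 ± 0.45, limma adjusted p = 0.0439), and SPBPB10D8.05c read 0.56, 1.33 and 1.18 (1.02 ± 0.41, limma adjusted p = 0.0498). The remaining copies were not called. SPBPB10D8.06c read 0.03, 0.41 and 1.42 (0.62 ± 0.72), and SPBPB10D8.07c read 0.23, -0.24 and 1.36 (0.45 ± 0.82). Genes of 1 sequence thus fell on both sides of the threshold, and they differed most on Sl2. Binding at the single copies cannot be told apart.

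Of the coding members below these, nrg1 came nearest to the threshold (0.96 ± 0.34, limma adjusted p = 0.0573), and pho841 gave 1.08, -0.20 and 1.82 (0.90 ± 1.02). SPBPB2B2.14c had a mean of 0.57 ± 0.17 and urh1 one of 0.46 ± 0.70. Values near 0 were found within mal1 (0.15 ± 1.05), thi7 (0.08 ± 0.50), aat1 (0.07 ± 1.27) and amf1 (0.01 ± 0.74). The amf1 coding feature thus read about 0 where its upstream feature read 2.02, and every array put the upstream feature higher. In alr2 the arrays lay close together (0.40 ± 0.13), and in ftm7 they did not (0.29 ± 0.51).

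The 5 lowest coding means belonged to SPBC8E4.03, annotated as an agmatinase (-0.28 ± 0.31), SPBPB2B2.20c (-0.25 ± 0.64), SPBPB7E8.02, of the PSP1 family (-0.25 ± 0.94), SPBPB2B2.07c (-0.15 ± 0.58) and SPBPB7E8.01 (-0.12 ± 0.80). None of them passed the test. Among coding members not measured on all arrays, SPBPB2B2.06c read 3.70 on Sl1 and 0.11 on Sl10, the widest disagreement among those named here. SPBPB2B2.15 read 2.16 on Sl1 and 1.80 on Sl10, and icl1 read 0.86 and 0.73. Sl1 gave 1.30 and Sl10 0.48 within pan5, and 0.84 and -0.09 within cha4. Within say1 Sl10 read 0.76.

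Levels were then followed along the chromosome. At the left end 4 of 5 tested intergenic members were enriched, with a median of 1.97, and at the right end 3 of 7, with a median of 0.83, against 19.7% of all tested intergenic features. The 4 left-end calls include the pair of features of the icl1 gap. The difference between these medians was 1.15, with 0.76, 1.41 and 1.63 on Sl1, Sl2 and Sl10. It was 0.39 with features on 2 or more arrays, 0.33 with channel B over A on all 3 arrays and 0 with the deposited values. Of the 4 tested intergenic members within 50 kb of the right end, 0 were called by limma (1 at an unadjusted p under 0.05, that of SPBPB2B2.15), and their median was 0.31. Beyond 50 kb, the right end gave 3 of 3 and both ends together 7 of 8, with medians of 1.35 and 1.68. The median beyond 50 kb less that within was 1.37. It was 0.81 with features on 2 or more arrays, 0.48 with channel B over A on all 3 arrays and -0.52, the opposite direction, with the deposited values. The deposited values follow 1 channel per array, so they are not the same measure as these ratios. Under loess, and with features on 2 or more arrays, 1 intergenic member within 50 kb was called.

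No member of the left end lies within 50 kb. The array has 26 features named SPAC1348, a clone number that the reference lists as SPBC1348 within 40.1 kb of the left end of chromosome II, and they were not counted as members. If they stand for these genes, they bear on the same distance. Of their tested intergenic features 2 of 4 were enriched, with means of 1.35 and 0.98 (limma adjusted p = 0.0166 and 0.0468), and the median was 0.88. These 2 features, of SPAC1348.06c and SPAC1348.07, would then share 1 gap, and their calls do not count as separate regions. In the reference that gap matches the gap of SPBPB2B2.14c and SPBPB2B2.15 at 99.6% identity over 3050 bases. The pair would thus be a near-identical copy of right-end members, whose tested feature was not called. Of their coding features 0 of 13 were called by limma (1 above and 1 below 0 at an unadjusted p under 0.05), and the median was -0.088, against 0.29 for the coding members.

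Of the coding members, 0 of 5 were called by limma within 50 kb (0 at an unadjusted p under 0.05), with a median of 0.12, and 4 of 20 beyond it, with a median of 0.41, against 2.42% of all tested coding features. With features on 2 or more arrays, 1 coding member within 50 kb, SPBPB2B2.15, and 1 beyond it were called. On Sl10, with all intergenic members measured, the median was 0.81 within 50 kb (n = 6) and 1.16 beyond (n = 27). By median rank, 1 of 6 within 50 kb and 21 of 27 beyond reached the 85th percentile, against 17.0% of all intergenic features. Sl1 measured all 6 of the former but only 13 of the 27, so these ranks rest on different arrays. On Sl10 alone, 5 of 6 within 50 kb (83.3%) and 23 of 27 beyond (85.2%) reached the 75th percentile of intergenic features. Coding members on Sl10 gave 6 of 6 and 23 of 30 (76.7%) against that percentile of coding features. Their medians there were 0.79 and 0.74. The internal clone gave 3 intergenic features that were not tested, with 2.12, 0.92 and 0.17 on Sl10, and 2 coding features that were not called (0 at an unadjusted p under 0.05). Leaving it out changed no count of calls and put the coding median at 0.33.

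**Figure D3:**
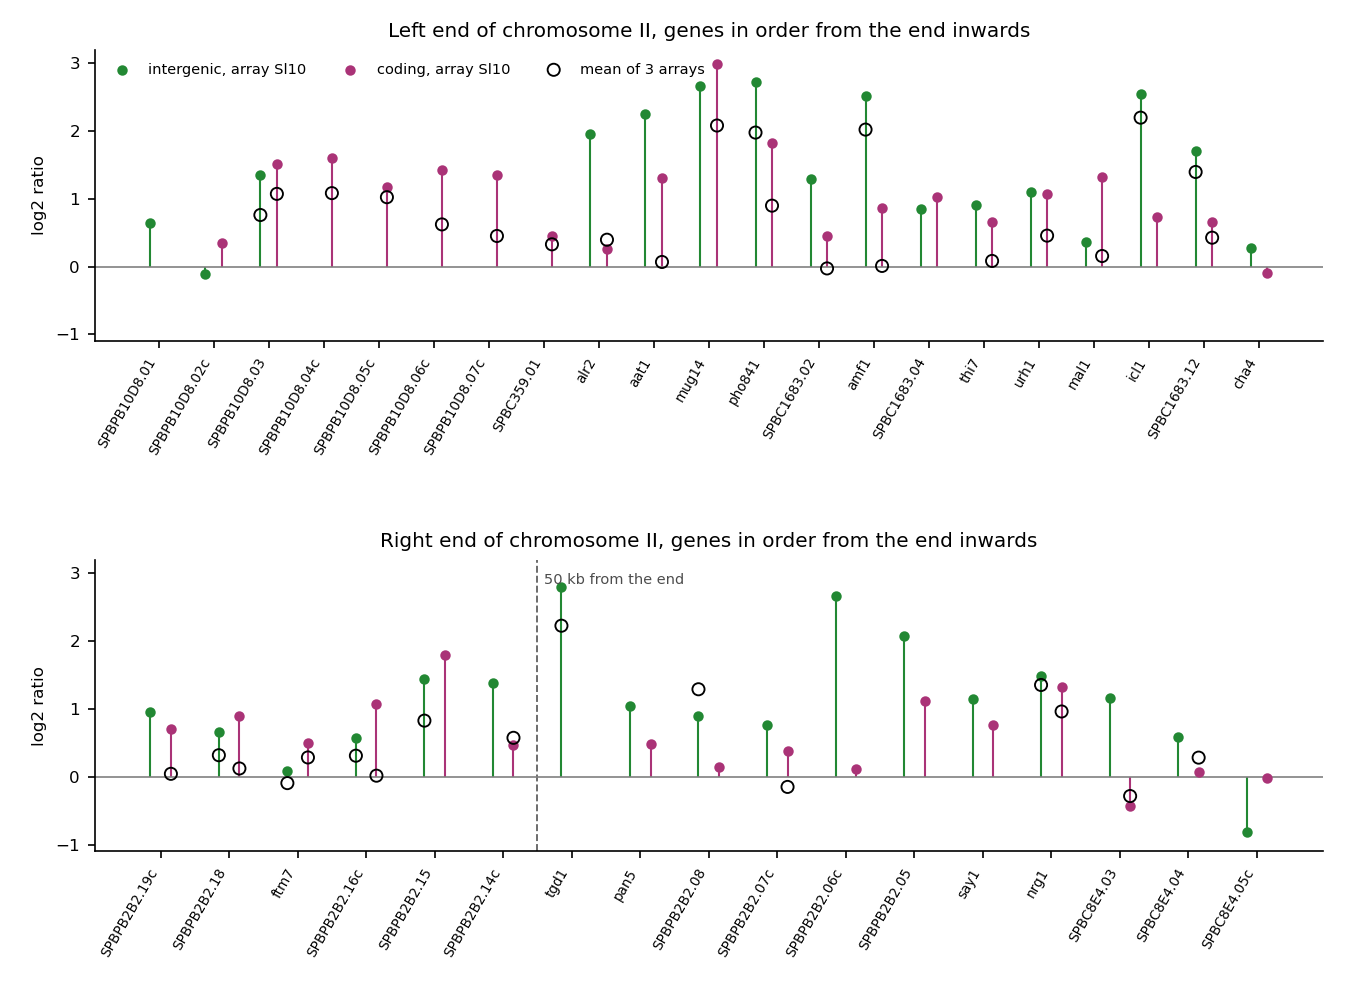
Log2 ratio (vertical axis) on array Sl10 of the intergenic (green) and coding (purple) feature of each member gene, in gene order from the end inwards, with open circles for the mean of members measured on all 3 arrays. At the right end the tested intergenic means left of the dashed line, within 50 kb of the end, lie between -0.09 and 0.83, and those right of it between 1.29 and 2.23.

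The members near the right end are also repeated elsewhere. A blastn search of the reference, counting matches of at least 80% identity and 100 bases, covered 50% or more of the length of 15 of 40 member genes and 6 of 33 upstream gaps. All 6 genes within 50 kb of the right end, SPBPB2B2.14c to SPBPB2B2.19c, were matched over their full length at 98.4% identity or more at the left end of chromosome II or at an end of chromosome I. The gap between ftm7 and SPBPB2B2.18, shown last above, recurs without a difference at II:10274-10568. Nearness to the end and repetition cannot be told apart among these members. Without the repeated members, 7 of 8 tested intergenic features were enriched, with a median of 1.68, and 3 of 16 coding features, with a median of 0.22.

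Repeats away from the end were less alike. The pho841 gene matched the pho84 locus at 83.6% identity over 1615 bases, and SPBC359.01, a permease gene, matched aat1 at 84.4% over 1459 bases. SPBPB2B2.06c matched a gene of chromosome I at 82.4%. For 24 genes and 22 gaps no match was found, the gaps of icl1, tgd1, amf1 and pho841 among them.

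The genes were grouped by words in the product text and notes of the reference, and the pseudogene SPBPB10D8.03, noted as a transporter, is in a pair of lists. Transporters and permeases had 4 of 6 tested intergenic features enriched (median 1.37) and 3 of 13 coding features (median 0.45). Of these 13, 4 are the tandem copies with identical coding sequence, which hold 2 of the 3 calls. The other call is that of the pseudogene. Hydrolases and amidases had 5 intergenic features, of which 0 were tested, and 0 of 3 tested coding features were called by limma. The 2 genes of dehydrogenases, reductases and oxidases and the 1 transcription factor gene had no tested intergenic feature. Pseudogenes and families restricted to fission yeasts had 0 of 1 intergenic and 1 of 4 coding features enriched. All other members had 3 of 6 and 2 of 9. No member fell in the cell surface list. The lists are small, and the background shares of 19.7% and 2.42% apply to each.

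Letters read by known factors were searched in the promoters. In the 300 bases upstream of the annotated start, searched on both strands, AGATAA or TGATAA, letters read by GATA factors, occurred in 25 of 40 members (62.5%) and in 45.6% of 5112 promoters. Among the 7 enriched members they occurred upstream of amf1, icl1, SPBC1683.12 and nrg1. The icl1 and SPBC1683.12 windows overlap and share their gap. TGACGT, the core of the site read by Atf1, was found in 2 of 40 members (5%) and 6.03% of promoters, and CCCCTC, the stress element read by Rst2, in 0 of 40 and 1.94%. The median GC content was 31.8% in members and 32% in all promoters. These are matches of letters in 1 window and not mapped sites.

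The ends of chromosome I served as a comparison, with every feature within 170.2 kb of either end by gene name and reference position. No lower limit of distance was set and no genes were set aside there. The members start 34.9 kb from an end, so the sets are not matched in distance. There 18 of 49 tested intergenic features were enriched (36.7%, median 0.77) and 13 of 71 coding features (18.3%, median 0.33). The difference between chromosomes was not tested, since features share arrays and neighbours. Among the genes set aside, the upstream features of gal10, abc3 and pho84 read 2.83, 2.83 and 2.73.

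The calls were then set against the other reading of Sl10. With channel B over A on all 3 arrays, 0 of 3960 features passed limma (138 at an unadjusted p under 0.05, 1 of them a member, the coding feature of SPBPB7E8.02). The 12 called members then had means from 0.01 to 0.70 and limma adjusted p from 0.801 to 0.994. The medians became 0.21 for intergenic and -0.31 for coding members. All 12 kept a mean above 0, but only Sl10 differs between the readings, so this sign is no separate support. Their order changed, with SPBPB2B2.08 the highest.

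**Figure D4:**
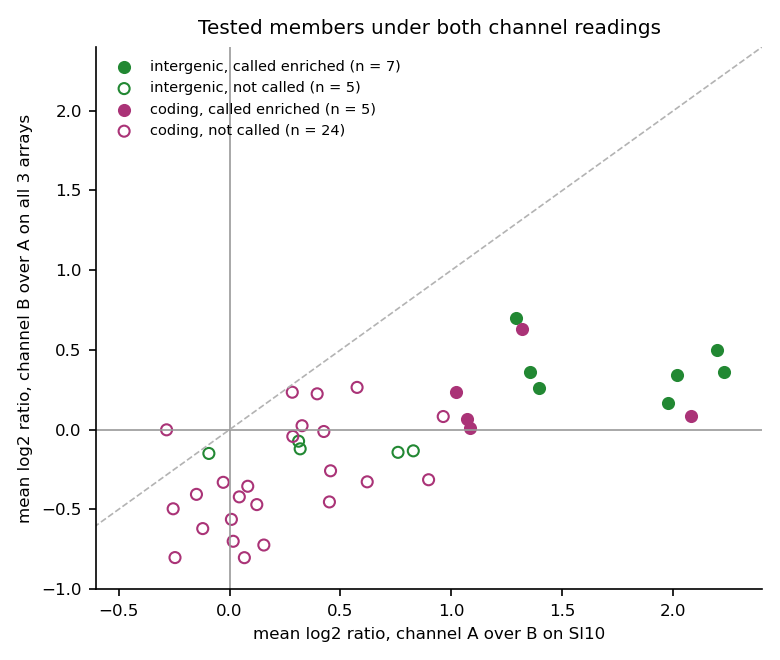
Mean log2 ratio of the 41 tested members with channel A over B on Sl10 (horizontal axis) and with channel B over A on all 3 arrays (vertical axis), with filled points for called members and a dashed line of equal values. The 12 called members lie between 0.01 and 0.70 on the vertical axis.

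Signal strength differed with the calls. The likely immunoprecipitate of 9 of the 12 called members exceeded the negative-control limit, the 95th percentile of the negative-control spots, on all 3 arrays. The exceptions were SPBPB10D8.05c, SPBPB2B2.04 and the region upstream of SPBPB2B2.08, which did not exceed it on Sl2. The likely input of the called members was dim: 0 of the 12 lay above that channel's median on every array, whereas 2 of 12 tested intergenic and 16 of 29 tested coding members did. Over the whole array 13 of 261 enriched intergenic features did so, and 288 of all 1327 tested. The part of dim input in these ratios was not tested. Leaving out Sl1, Sl2 or Sl10 left 7, 4 and 9 of the 12 calls, of which 1, 1 and 2 were coding. The 4 calls without Sl2 were those upstream of amf1, icl1 and tgd1 and that of the mug14 coding feature. With local background subtracted, the calls upstream of icl1 and tgd1 were the 2 left.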

How the data were processed

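Spot intensity of 2 channels was taken from the TIGR Spotfinder files deposited by the authors. Per the labels' protocols, ratios were median normalised in GeneSpring by the authors. The deposited log10 values follow 1 channel per array and were used as an alternative. The scanner files give no coordinates, and the genome build is not given in the sources used here. Integrated intensities without background subtraction gave log2 ratios for spots with signal in both channels, centred on each array's median and averaged over the spots of a feature. The fit used limma 3.58.1 in R 4.3.3 (lmFit, eBayes, two-sided) over 3960 features. Tested on simulated data of that many features, shifts of 1, 2 and 3 log2 units were recovered for 14.9%, 94.0% and 100% of shifted features, and 4.14% of calls were false. Unshifted features were simulated independently around 0, whereas the tested intergenic and coding features had medians of 0.36 and -0.28. The share of false calls holds for the simulation and is not known for these data. The number of arrays limits the precision. Names were matched to RefSeq ASM294v3, and copies were sought with blastn 2.17.0.

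The members, lists, motifs and the reading of Sl10 were chosen with earlier results of these data known. Named are all called members, the 10 highest and 5 lowest means of each kind, members with a gene symbol and partners of divergent pairs. Other genes were named after their values were seen. Alternatives concerned channel orientation, background, normalization, centring, filters, the deposited values and each array left out.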

Additional observations from a re-analysis of the deposited data

How the results depend on the processing

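The count of called features over the array, enriched and depleted together, was 549, of which 327 were enriched. It became 0 with B over A on every array, 93 with local background subtracted (85 enriched) and 298 with dim input removed (19 enriched). It became 0 with the deposited values and 91 to 878 with 1 array left out (90 to 330 enriched). The 7 called intergenic members became 0, 2, 0 and 0 under the first 4 of these, 4 with intergenic and coding features centred apart, 12 with features on 2 or more arrays and 3 to 7 with 1 array left out. The 5 called coding members became 0, 0, 0 and 0, then 2 with normexp, 3 with features on 2 or more arrays, 3 without members copied elsewhere and 1 to 2 with 1 array left out. With the deposited values 597 features had an unadjusted p under 0.05, 9 intergenic and 15 coding members among them. Dim input removal left none of the 12 called members to test. The median of the intergenic members, 1.32, became 0.21 with B over A on every array, 1.58 with normexp and 0.96 with both kinds centred apart. It became 0.11 with dim input removed, which left only the 2 features of the gap between ftm7 and SPBPB2B2.18. It became 0.67 with the deposited values, 1.68 without copied members and 1.26 to 1.32 with 1 array left out. The coding median, 0.29, became -0.31 with B over A on every array, 0.03 with dim input removed, 0.53 with loess, 0.55 with the deposited values, 0.50 with both kinds centred apart and 0.15 to 0.56 with 1 array left out. The left minus right median, 1.15, became 0.33 with B over A on every array, 0.39 with features on 2 or more arrays, 0 with the deposited values and 0.62 without copied members. The median beyond 50 kb less that within, 1.37, became 0.48, 0.81 and -0.52 under the first 3 of these settings. The cause of these changes was not tested. The deposited values follow 1 channel per array and are not the same measure as the ratios. Neither position difference could be computed with dim input removed, nor the second without copied members, and the left against right difference within 50 kb could not be computed because no left-end member lies there. The copied and internal members were set apart after seeing the data.

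No called member changed sign in the settings that measured it, which reuse the arrays that gave the call. Uncalled members that did are given with their value under each setting, the coding feature unless said to be upstream. With B over A on every array these were upstream of SPBPB10D8.03 (-0.14), SPBPB2B2.15 (-0.13), SPBPB2B2.16c (-0.072) and SPBPB2B2.18 (-0.12), and SPBPB10D8.06c (-0.33), SPBPB10D8.07c (-0.45), aat1 (-0.80), pho841 (-0.31), amf1 (-0.56), thi7 (-0.36), urh1 (-0.26), mal1 (-0.72), SPBC1683.12 (-0.012), SPBPB2B2.16c (-0.70), ftm7 (-0.042), SPBPB2B2.18 (-0.47) and SPBPB2B2.19c (-0.42). The deposited values gave SPBC1683.02 0.26, SPBPB7E8.01 0.51, SPBPB7E8.02 0.79, SPBPB2B2.07c 0.99, SPBPB2B2.14c -0.11, SPBPB2B2.20c 0.96 and 2.30 upstream of ftm7. Kinds centred apart gave SPBC1683.02 0.18, SPBPB7E8.01 0.092, SPBPB2B2.07c 0.064, and -0.050 and -0.043 upstream of SPBPB2B2.16c and SPBPB2B2.18. Background subtraction gave aat1 -0.14, amf1 -0.56, thi7 -0.019, SPBPB2B2.16c -0.022 and SPBPB2B2.19c -0.40. Loess gave SPBC1683.02 0.26, SPBPB7E8.01 0.19, SPBPB7E8.02 0.098, SPBPB2B2.07c 0.29, SPBPB2B2.20c 0.14 and 0.28 upstream of ftm7. Normexp gave amf1 -0.36, thi7 -0.18, SPBPB2B2.19c -0.22 and 0.17 upstream of ftm7. With 1 array left out the ranges were -0.0024 to 0.79 for SPBPB10D8.07c, -0.55 to 0.72 for aat1, -0.27 to 0.17 for SPBC1683.02, -0.42 to 0.26 for amf1, -0.20 to 0.24 for thi7, -0.43 to 0.60 for mal1, -0.56 to 0.23 for SPBPB7E8.01, -0.79 to 0.075 for SPBPB7E8.02, -0.42 to 0.16 for SPBPB2B2.07c, -0.51 to 0.64 for SPBPB2B2.16c, -0.37 to 0.28 upstream of ftm7, -0.26 to 0.47 for SPBPB2B2.18, -0.28 to 0.29 for SPBPB2B2.19c and -0.56 to 0.075 for SPBPB2B2.20c. No paired analysis was possible because the arrays form 1 group.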
